A study of Mus musculus with 17 samples.

Results

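The genes described here encode the enzymes and regulators of cholesterol and fatty acid synthesis, a list of 33 genes of which 32 had a probe set on the array and Insig1 was not measured. They were chosen by name, for their place in these pathways, from the 12393 genes that a probe set of the array named. Their expression was measured in whole lungs of 17 male mice, with 1 array per mouse and 6 groups. Wild-type C57BL/6J mice received saline (n = 4, lungs taken at 22 h) or lipopolysaccharide (LPS, endotoxin of Escherichia coli O111:B4, given intravenously at 20 mg/kg), with lungs taken at 7 h (n = 3) or 22 h (n = 3). NOS2-/- mice, which lack the inducible nitric oxide synthase in all cells, received the same saline (n = 1, 22 h) or LPS (7 h, n = 3, and 22 h, n = 3). The labels name the strain of the wild-type mice and give none for the NOS2-/- mice. No saline lung was taken at 7 h, so LPS at 7 h was set against saline at 22 h and time after injection is part of that comparison.

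Cells make cholesterol from acetyl-CoA through mevalonate, isoprenoids, squalene and a series of sterols, and make fatty acids from the same precursor by chain growth, elongation and desaturation. The transcription factors SREBP1 and SREBP2 drive most of these genes when membrane sterol is low; Scap carries them from the endoplasmic reticulum for activation and the Insig proteins hold them back when sterol is plentiful. In the lung, alveolar type 2 cells use both routes to make the lipids of surfactant, macrophages handle the lipid that is recycled, and endotoxin is known to change sterol handling in macrophages.

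The promoters of 25 of the 32 measured genes were present in the RefSeq table used (GRCm38.p6, 250 bases before to 50 after the start site, 36 windows), and those of Fads1, Fdft1, Fdps, Scd1, Scd2, Sqle and Stard4 were not in it. The 4 windows below are shown because these genes had the patterns that the results turn on: Hmgcs1 and Idi1 were lower in NOS2-/- than in wild-type lungs at 22 h of LPS, Fasn fell with LPS, and Elovl6 rose. Capitals mark matches on either strand to TCACNCCAC, the sterol regulatory element as searched here, and to CCAAT, which reads ATTGG on the other strand.
Hmgcs1, chr13:119690101-119690400, plus strand: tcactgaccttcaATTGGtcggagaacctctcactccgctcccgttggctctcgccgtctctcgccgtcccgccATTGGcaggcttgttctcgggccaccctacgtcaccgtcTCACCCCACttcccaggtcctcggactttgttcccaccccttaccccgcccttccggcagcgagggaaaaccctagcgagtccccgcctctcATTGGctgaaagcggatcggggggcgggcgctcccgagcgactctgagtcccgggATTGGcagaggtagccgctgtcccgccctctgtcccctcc
Idi1, chr13:8885356-8885655, plus strand: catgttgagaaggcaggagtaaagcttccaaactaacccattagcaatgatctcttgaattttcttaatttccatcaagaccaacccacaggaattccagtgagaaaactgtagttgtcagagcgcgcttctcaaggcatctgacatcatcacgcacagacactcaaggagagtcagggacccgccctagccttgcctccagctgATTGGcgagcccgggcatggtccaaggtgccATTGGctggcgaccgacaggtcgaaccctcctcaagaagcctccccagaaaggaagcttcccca
Fasn, chr11:120824498-120824797, minus strand: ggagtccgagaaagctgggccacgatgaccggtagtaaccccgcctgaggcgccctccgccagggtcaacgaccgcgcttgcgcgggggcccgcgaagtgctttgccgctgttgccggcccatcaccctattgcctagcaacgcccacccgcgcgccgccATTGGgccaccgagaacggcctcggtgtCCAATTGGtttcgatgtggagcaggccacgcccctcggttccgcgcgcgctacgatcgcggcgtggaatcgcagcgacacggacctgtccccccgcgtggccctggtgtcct
Elovl6, chr3:129532136-129532435, plus strand: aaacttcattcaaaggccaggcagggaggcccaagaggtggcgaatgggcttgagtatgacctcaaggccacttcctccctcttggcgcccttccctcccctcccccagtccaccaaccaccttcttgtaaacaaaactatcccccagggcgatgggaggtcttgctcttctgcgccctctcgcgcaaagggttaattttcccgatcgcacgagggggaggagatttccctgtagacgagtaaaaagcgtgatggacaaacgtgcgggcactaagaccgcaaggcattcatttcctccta
Of the 25 genes, 1 (Hmgcs1) held TCACNCCAC, beside 1.5% of the 9887 measured genes with a promoter in the table. CCAAT stood in the windows of 21 genes (84.0%), beside 42.3% of the measured genes, and the 4 without it were Acaca, Elovl6, Fads2 and Scap. Counted over windows, 61.1% of the 36 held CCAAT, beside 37.4% of all 32851 promoters. CACGTG was present in 5 genes (20.0%; 10.8% of measured genes) and GGGCGG in 20 (80.0%; 61.0%). A match describes the letters in these windows and is not a measured binding site.

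The values are log2 signals as deposited, and the medians of the 17 arrays lay between 8.46 and 8.55. Log2 signals of 9 alveolar type 2 cell markers averaged 13.07 to 13.17 in the wild-type saline lungs, so the defining markers of lung were present. Differences are in log2 units, and a gene was called higher or lower at an adjusted p under 0.05 by limma, fitted to all 17 arrays. One wild-type array, replicate 2 of LPS 22 h, correlated with the other 2 arrays of its group at 0.955 and 0.949, where those correlated with each other at 0.996. It had the lowest value of its group for 27 of the 32 genes (84.4%; 54.7% of all genes), so results are also given without it where the counts change. The NOS2-/- saline mouse stood apart in markers of other tissues: mean log2 signal over 7 skeletal muscle genes was 10.08 there, against 6.67 to 6.86 in wild-type saline lungs. Over 6 squamous epithelium genes it was 9.54 against 7.32 to 7.49, and over 7 adipose genes 9.42 against 8.50 to 8.97. The Nos2 probe set read 9.20, 9.25 and 8.99 in NOS2-/- and 8.80, 8.19 and 8.48 in wild-type lungs at 22 h of LPS; no source used here says where its probes lie relative to the disrupted part of the gene, so it does not check the genotype labels.

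The first comparison asked how LPS changed these genes in wild-type lungs. At 7 h, 13 of the 32 genes were lower than in saline lungs and 2 were higher, with 20.6% of all genes lower and 14.6% higher. The counts at 22 h were 15 lower and 1 higher, with 22.6% of all genes lower and 13.1% higher. The median difference over the 32 genes was -0.17 at 7 h and -0.23 at 22 h, against medians of -0.07 and -0.02 over all genes. Without replicate 2 of LPS 22 h the counts were 14 lower and 3 higher at 7 h, where it enters through the shared spread only, and 14 lower and 4 higher at 22 h, beside 3698 and 2326 and then 3016 and 2349 of all genes. At both times 6 of 7 desaturases and elongases, 3 of 5 enzymes of fatty acid synthesis, the glycerolipid enzyme Gpam, the sterol carrier Stard4 and 2 of 8 enzymes from squalene to cholesterol were lower, and none of the 6 mevalonate enzymes was. In whole lung, fewer cells of a type and less RNA per cell cannot be told apart.

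**Figure D1:**
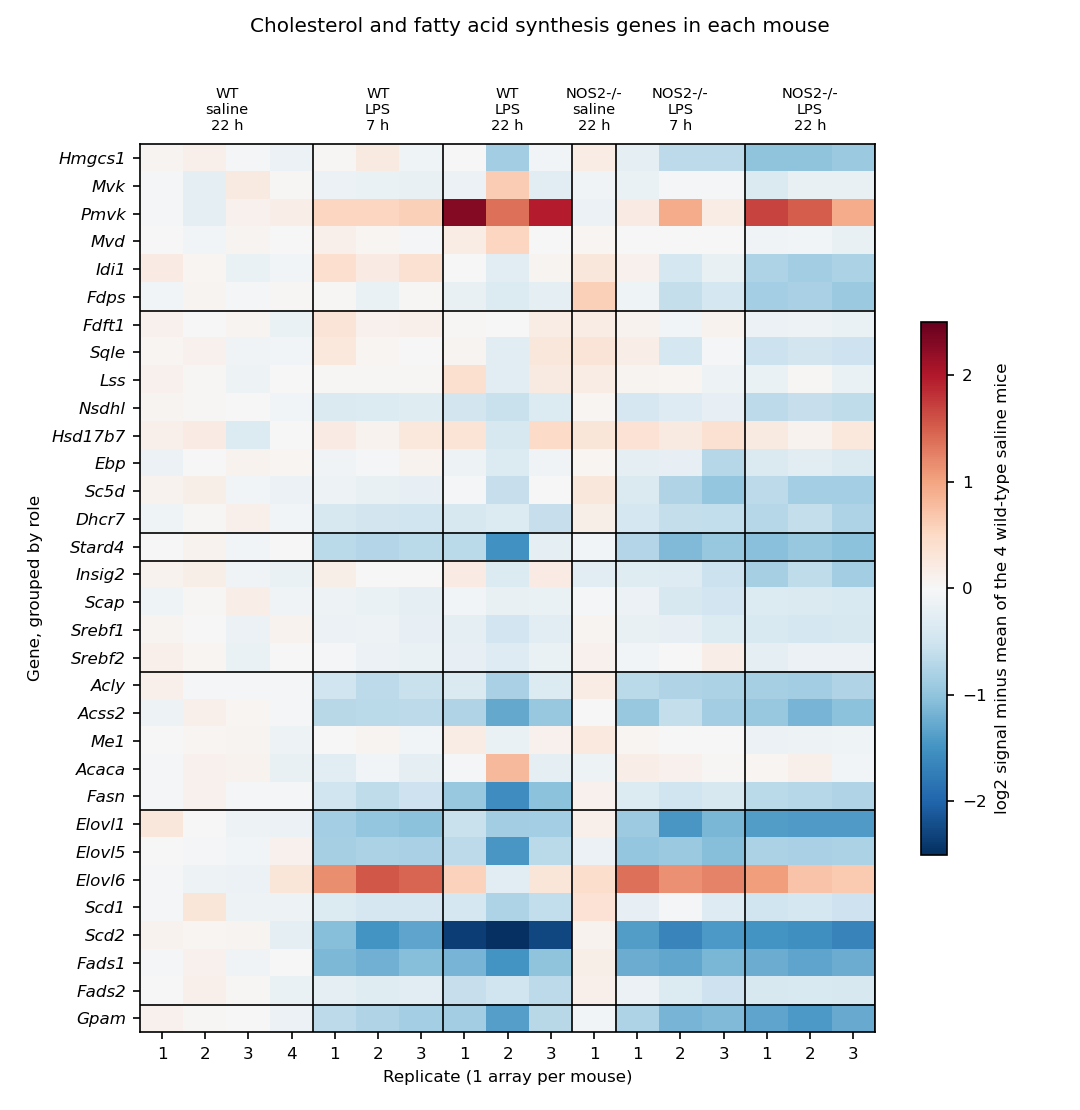
Log2 signal of the 32 genes (rows, grouped by role) in each of the 17 mice (columns, grouped by genotype, treatment and time), as the difference from the mean of the 4 wild-type saline mice. Scd2, Fads1, Elovl1, Elovl5 and Gpam are blue in every LPS lung; Elovl6 is red at 7 h; Pmvk is red at 22 h; Hmgcs1, Idi1 and Fdps are blue mainly in the NOS2-/- LPS 22 h lungs.

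Scd2, a stearoyl-CoA desaturase that puts the double bond into saturated fatty acids, had the largest difference of the 32 genes at 22 h. Its log2 signal was 12.56, 12.52, 12.54 and 12.25 in the wild-type saline mice, 11.40, 10.97 and 11.14 at 7 h and 10.12, 9.84 and 10.19 at 22 h of LPS. No 2 of these groups overlapped, and the level at 22 h lay below that at 7 h. The difference from saline was -1.29 (SE 0.11, adjusted p = 3.17e-07) at 7 h and -2.42 (SE 0.11, adjusted p = 3.53e-10) at 22 h, the latter 5.34-fold lower, and the further fall between 7 and 22 h was -1.12 (SE 0.12, adjusted p = 3.53e-05). Both other Scd2 probe sets were also lower at 22 h, at -2.54 and -2.39. Scd1, its close relative, changed by -0.39 (SE 0.11, adjusted p = 0.0101) at 7 h and -0.61 (SE 0.11, adjusted p = 0.000291) at 22 h.

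Fads1, which introduces double bonds into polyunsaturated fatty acids, fell early and stayed low. It read 10.98, 11.10, 10.91 and 11.01 in saline lungs, 9.87, 9.80 and 9.93 at 7 h and 9.83, 9.51 and 9.98 at 22 h. All 6 LPS lungs lay below every saline lung, and the LPS groups overlapped each other. The differences were -1.13 (SE 0.09, adjusted p = 1.3e-07) and -1.22 (SE 0.09, adjusted p = 6.16e-08). Fads2, the desaturase acting before it, was lower, at -0.28 (SE 0.09, adjusted p = 0.0213) at 7 h and -0.57 (SE 0.09, adjusted p = 8.22e-05) at 22 h.

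The elongases did not move together. Elovl1, which lengthens very long saturated chains, read 12.80, 12.52, 12.40 and 12.37 in saline lungs, 11.68, 11.55 and 11.49 at 7 h and 11.96, 11.65 and 11.68 at 22 h. Elovl5, the elongase of polyunsaturated chains, read 12.67, 12.61, 12.59 and 12.76 in saline lungs, 11.83, 11.86 and 11.85 at 7 h and 12.00, 11.20 and 11.98 at 22 h. Both were lower in every LPS lung than in any saline lung: Elovl1 changed by -0.95 (SE 0.13, adjusted p = 2.23e-05) and -0.76 (SE 0.13, adjusted p = 0.000195), Elovl5 by -0.81 (SE 0.14, adjusted p = 0.000306) and -0.93 (SE 0.14, adjusted p = 8.72e-05).

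Elovl6, which lengthens the product of fatty acid synthase, went the other way. Its values were 8.44, 8.34, 8.31 and 8.78 in saline lungs, 9.64, 10.03 and 9.93 at 7 h and 9.05, 8.18 and 8.76 at 22 h. All 3 lungs at 7 h were above every saline lung, whereas at 22 h replicate 2 was below them all and the other two were near or above the highest. The gene was 2.63-fold higher at 7 h (1.40, SE 0.18, adjusted p = 1.38e-05), differed by 0.20 (SE 0.18, adjusted p = 0.439) at 22 h, and changed between the times by -1.20 (SE 0.19, adjusted p = 0.000696). Without replicate 2 the 22 h difference was 0.44 (adjusted p = 0.0183), which passed the test.

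Among the enzymes that make and extend the saturated chain, Fasn, fatty acid synthase itself, read 11.68, 11.83, 11.67 and 11.67 in saline lungs, 11.22, 11.07 and 11.19 at 7 h and 10.77, 10.16 and 10.69 at 22 h. The 3 groups did not overlap and were ordered by time after LPS. Fasn changed by -0.55 (SE 0.11, adjusted p = 0.00122) at 7 h and -1.17 (SE 0.11, adjusted p = 7.92e-07) at 22 h, with -0.62 (SE 0.12, adjusted p = 0.00354) between them. Acss2, which makes acetyl-CoA from acetate, read 9.22, 9.46, 9.38 and 9.29 in saline lungs, 8.65, 8.66 and 8.68 at 7 h and 8.58, 8.07 and 8.38 at 22 h. It was lower in all 6 LPS lungs, at -0.68 (SE 0.11, adjusted p = 0.000203) and -0.99 (SE 0.11, adjusted p = 4.24e-06).

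Acly, ATP-citrate lyase, which supplies cytosolic acetyl-CoA to both pathways, changed by -0.57 (SE 0.10, adjusted p = 0.000284) at 7 h and -0.51 (SE 0.10, adjusted p = 0.000725) at 22 h. Acaca, the carboxylase that commits acetyl-CoA to fatty acids, differed by -0.18 (SE 0.17, adjusted p = 0.489) and 0.19 (SE 0.17, adjusted p = 0.446) and did not pass; its log2 signals at 22 h were 8.27, 9.11 and 8.07, with replicate 2 far above the others. Me1, malic enzyme, a source of NADPH, differed by 0.01 (95% confidence interval -0.16 to 0.17) and 0.04 (-0.13 to 0.21).

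Gpam, the mitochondrial acyltransferase that starts glycerolipid assembly, read 11.48, 11.40, 11.36 and 11.23 in saline lungs, 10.72, 10.62 and 10.51 at 7 h and 10.51, 9.99 and 10.67 at 22 h. It was lower, at -0.75 (SE 0.13, adjusted p = 0.000414) and -0.98 (SE 0.13, adjusted p = 3.41e-05), with no overlap. Stard4, which carries sterol between membranes, read 10.22, 10.32, 10.18 and 10.23 in saline lungs, 9.56, 9.51 and 9.56 at 7 h and 9.57, 8.72 and 10.00 at 22 h. Its 22 h lungs spread widely, replicate 2 lowest and replicate 3 nearest to saline, and the differences were -0.69 (SE 0.20, adjusted p = 0.0135) and -0.81 (SE 0.20, adjusted p = 0.00497). Without replicate 2 the 22 h difference was -0.45 (adjusted p = 0.00176), and with the 2 groups fitted alone the call was lost (adjusted p = 0.0627).

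**Figure D2:**
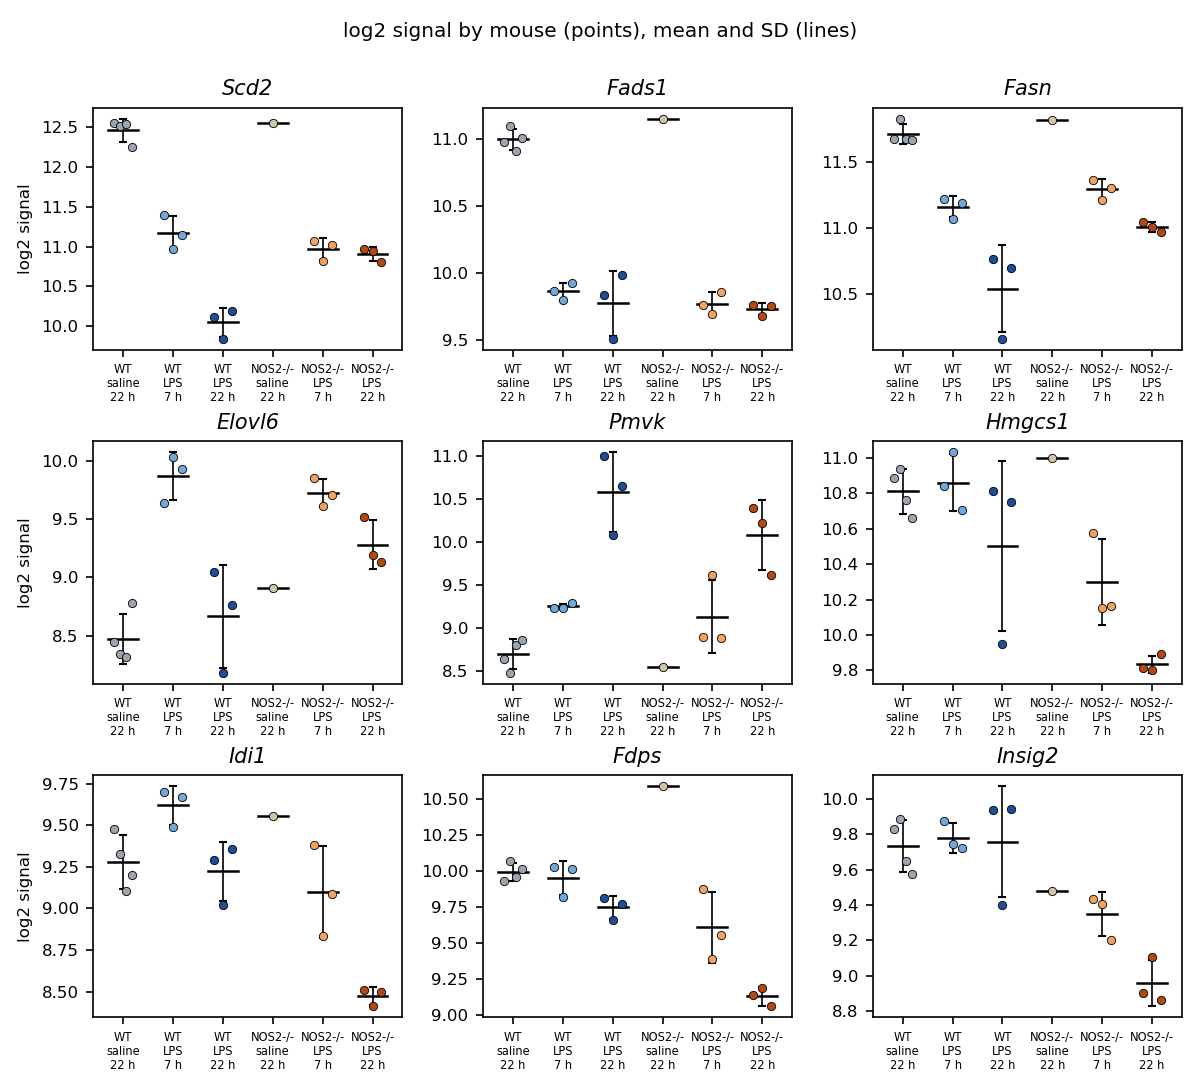
Log2 signal (vertical axis) of 9 of the genes in the 6 groups (horizontal axis), with 1 point per mouse and lines for the group mean and SD; each panel has its own scale. Scd2, Fads1 and Fasn are lower in all LPS groups, Elovl6 peaks at 7 h, Pmvk rises at 22 h, and Hmgcs1, Idi1, Fdps and Insig2 are lowest in the NOS2-/- LPS 22 h group.

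Most of the mevalonate and sterol enzymes did not pass the test in wild-type lungs. Pmvk, phosphomevalonate kinase, was the exception among the 6 mevalonate enzymes at 22 h. It read 8.64, 8.48, 8.80 and 8.86 in saline lungs, 9.23, 9.24 and 9.29 at 7 h and 11.00, 10.08 and 10.65 at 22 h, and the 3 groups did not overlap. The difference was 0.55 (SE 0.22, adjusted p = 0.0734) at 7 h and 1.88 (SE 0.22, adjusted p = 7.56e-06) at 22 h, 3.68-fold higher, with 1.33 (SE 0.24, adjusted p = 0.00205) between the times. Idi1, which interconverts the isoprenoid building blocks, was higher at 7 h by 0.34 (SE 0.12, adjusted p = 0.045), a call that 8 of 17 alternatives did not keep, and differed by -0.06 (SE 0.12, adjusted p = 0.766) at 22 h. At 22 h Hmgcs1, HMG-CoA synthase, differed by -0.31 (SE 0.17, adjusted p = 0.197), Mvd by 0.24 (SE 0.10, adjusted p = 0.0741) and Fdps, farnesyl diphosphate synthase, by -0.24 (SE 0.10, adjusted p = 0.0682).

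Of the 8 enzymes from squalene to cholesterol, Dhcr7 and Nsdhl were lower at both times and none was higher. Dhcr7, the reductase of the last step, changed by -0.45 (SE 0.08, adjusted p = 0.000304) at 7 h and -0.44 (SE 0.08, adjusted p = 0.000412) at 22 h. Nsdhl, which removes methyl groups from the sterol ring, read 10.18, 10.14, 10.10 and 10.05 in saline lungs, 9.76, 9.78 and 9.81 at 7 h and 9.65, 9.56 and 9.77 at 22 h, lower in every LPS lung; it changed by -0.34 (SE 0.07, adjusted p = 0.00112) and -0.46 (SE 0.07, adjusted p = 6.77e-05). Sqle, squalene epoxidase, the first oxygenation on this route, differed by 0.02 at 22 h, with an interval of -0.28 to 0.31. The differences of Fdft1, Lss, Hsd17b7, Ebp and Sc5d at 22 h ran from -0.21 to 0.14, and none passed. Without replicate 2, Lss (0.31, adjusted p = 0.00596) and Hsd17b7 (0.41, adjusted p = 0.00742) were higher.

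Of the 4 measured regulators, Srebf1 and Srebf2 were lower at 22 h and none passed at 7 h. Without replicate 2 of LPS 22 h, limma called Srebf1 lower at 7 h (-0.16, adjusted p = 0.0377). That array enters the 7 h comparison through the shared spread only. Srebf2 at 22 h was then not called (-0.18, adjusted p = 0.0824). Srebf1, the gene of SREBP1, read 10.44, 10.37, 10.24 and 10.47 in saline lungs, 10.22, 10.24 and 10.18 at 7 h and 10.13, 9.90 and 10.10 at 22 h. It was lower at 22 h, at -0.33 (SE 0.07, adjusted p = 0.00206), every LPS lung at 22 h lying below every saline lung. Srebf2, the gene of SREBP2, read 10.60, 10.53, 10.32 and 10.49 in saline lungs, 10.44, 10.35 and 10.32 at 7 h and 10.28, 10.17 and 10.33 at 22 h, so that saline and 22 h values overlapped; its difference of -0.22 (SE 0.08, adjusted p = 0.0363) was lost in 12 of 16 alternatives. Scap read 10.30, 10.42, 10.56 and 10.31 in saline lungs, 10.28, 10.23 and 10.17 at 7 h and 10.33, 10.20 and 10.23 at 22 h and did not pass at either time (-0.17 and -0.14). Insig2 differed by 0.05 and 0.02, with intervals of -0.22 to 0.31 and -0.24 to 0.29.

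From 7 to 22 h in wild-type lungs, 3 of the 32 genes fell (Elovl6, Scd2 and Fasn) and 1 rose (Pmvk), with 8.45% of all genes lower and 3.48% higher. Without replicate 2, 4 fell and 2 rose, beside 1056 and 996 of all genes, Fads2 falling (-0.33, adjusted p = 0.024) and Lss rising (0.28, adjusted p = 0.0411) as well. Markers of alveolar type 2 cells fell beside the fatty acid genes. From the saline level given above, the mean log2 signal of the 9 markers went to 12.67 to 12.78 at 7 h and 12.26 to 12.52 at 22 h; 7 of the 9 were lower and 1 higher at 7 h, and 8 were lower and 1 higher at 22 h. Over 8 neutrophil markers the level rose from 9.21 to 9.57 in saline lungs to 11.77 to 11.98 at 7 h and 11.74 to 11.98 at 22 h, and over 8 endothelial markers it fell from 11.88 to 12.00 to 10.28 to 10.34 and 10.25 to 10.62. Pecam1, Tek, Kdr, Vwf, Ace and Tie1 lay below every saline lung at both times. Cldn5 went the other way, from 12.57 to 12.77 in saline lungs to 13.03 to 13.23 and 13.36 to 13.74, and Cdh5 overlapped saline at both times. The 7 monocyte and macrophage markers averaged 10.00 to 10.06 in saline lungs, 11.15 to 11.27 at 7 h and 11.11 to 11.50 at 22 h, with 4 higher and 2 lower at both times. The 7 adipose markers averaged 8.50 to 8.97 in saline lungs, 8.42 to 8.46 at 7 h and 8.12 to 8.32 at 22 h, with 4 lower and none higher at both times; Adipoq differed by -2.69 at 22 h. The part of these shifts in the results on lipid genes was not tested.

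The next comparison asked whether the same genes differed between NOS2-/- and wild-type lungs after LPS. At 22 h, 9 of the 32 genes were lower in NOS2-/- lungs and 3 were higher, with 7.84% of all genes lower and 10.2% higher, and the median difference was -0.20 against 0.01 over all genes. The lower genes were 4 of 6 mevalonate enzymes (Hmgcs1, Mvd, Idi1 and Fdps), 3 of 8 enzymes from squalene to cholesterol (Sqle, Sc5d and Dhcr7), Insig2 and Elovl1. The higher ones, Scd2, Fasn and Elovl6, were on the fatty acid side. The genotypes did not overlap for any of these 12 genes. They were picked by limma on the same arrays, so this is no separate support. The exact two-sided permutation test, which cannot go below 0.1 with 3 mice against 3, gave 0.1 for each. Fitted to the 6 arrays of these groups alone, limma called 4 of the 32 genes, and the count over all genes was not taken for that fit. Without wild-type replicate 2, 16 were lower and 2 higher, beside 2054 and 1477 of the 12393 genes; Dhcr7 and Elovl6 were then not called, and Fdft1, Lss, Acly, Me1, Pmvk, Nsdhl, Stard4 and Gpam were lower as well.

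**Figure D3:**
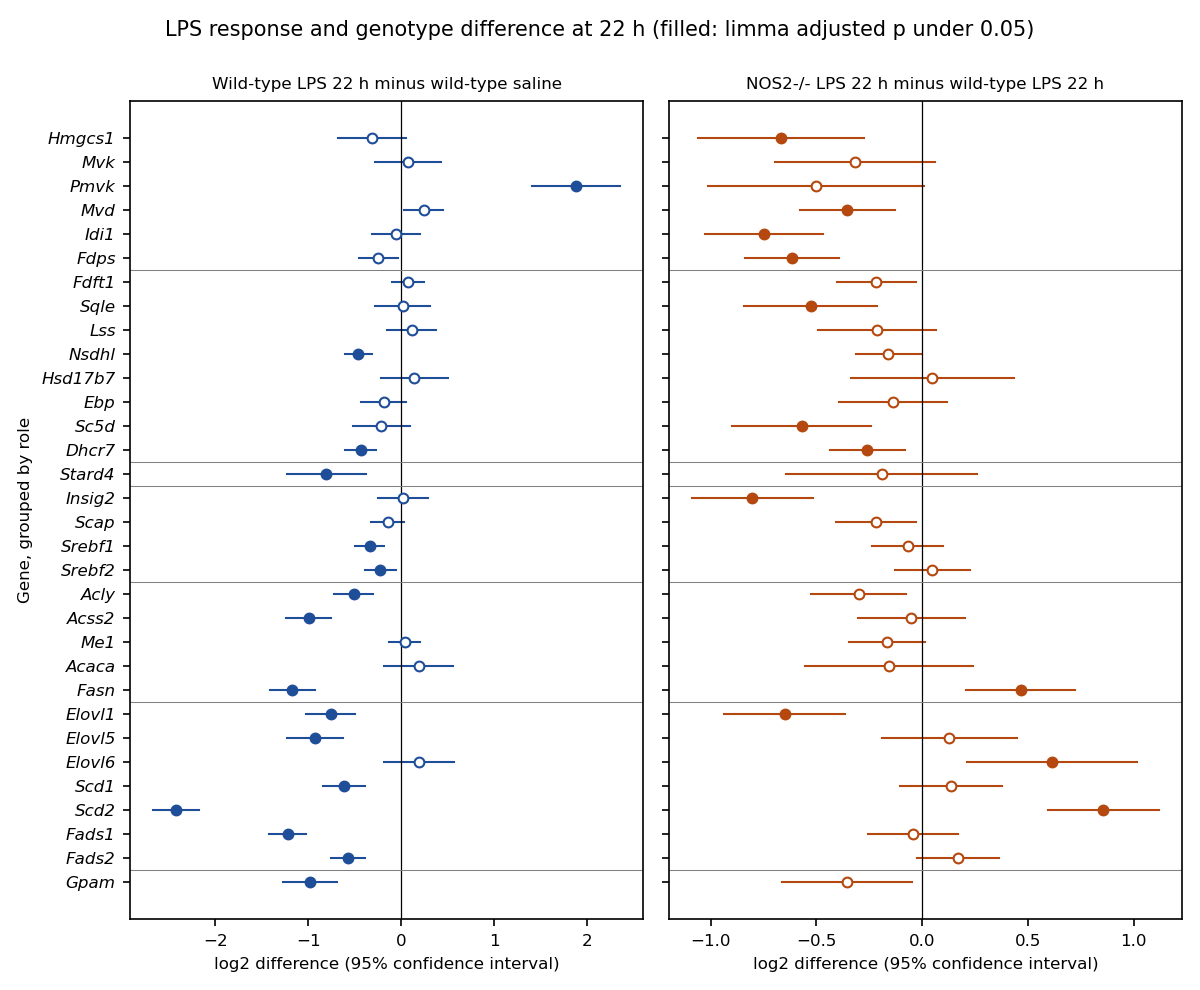
Log2 differences (horizontal axis, with 95% confidence interval) of the 32 genes, grouped by role, for wild-type LPS 22 h minus saline (left) and NOS2-/- minus wild-type at LPS 22 h (right); filled points passed limma's test at an adjusted p under 0.05. On the left the filled points are mainly fatty acid genes below 0, and on the right mainly mevalonate and sterol genes below 0 with Scd2, Fasn and Elovl6 above it.

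Hmgcs1, which condenses acetyl groups at the head of the mevalonate route, read 10.81, 9.95 and 10.75 in wild-type and 9.81, 9.80 and 9.89 in NOS2-/- lungs at 22 h of LPS, and 10.89, 10.94, 10.76 and 10.66 in wild-type saline lungs. The 2 LPS groups did not overlap, but wild-type replicate 2 came close to the NOS2-/- mice. The difference was -0.67 (SE 0.18, adjusted p = 0.0213), and -0.95 (adjusted p = 1.95e-05) without that replicate. Of its other 3 probe sets, 2 were called lower and the third read -0.62 without passing.

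Idi1 read 9.29, 9.02 and 9.35 in wild-type and 8.51, 8.41 and 8.50 in NOS2-/- lungs, with saline lungs at 9.48, 9.33, 9.11 and 9.20. All 3 NOS2-/- values lay below every wild-type lung, saline or LPS. It was 1.68-fold lower (-0.75, SE 0.13, adjusted p = 0.00123); its dimmer probe set differed by -0.84 and did not pass. Fdps read 9.81, 9.66 and 9.77 in wild-type and 9.14, 9.19 and 9.06 in NOS2-/- lungs, with saline lungs at 9.93, 10.07, 9.95 and 10.01. Again the groups were apart, at -0.62 (SE 0.10, adjusted p = 0.000934); the other Fdps probe set, far dimmer, differed by -0.90 with an adjusted p of 0.257.

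Further along the route, Sqle was lower, at -0.53 (SE 0.15, adjusted p = 0.0231) and Mvd, which makes the first isoprenoid, at -0.35 (SE 0.10, adjusted p = 0.0312). Without wild-type replicate 2, the highest for Mvd, its difference was -0.20 (adjusted p = 0.0489), and its other probe set did not pass. Sc5d, a late sterol desaturase, read 9.16, 8.65 and 9.21 in wild-type and 8.56, 8.38 and 8.37 in NOS2-/- lungs, a difference of -0.57 (SE 0.15, adjusted p = 0.0195); wild-type replicate 2 stood only slightly above the highest NOS2-/- mouse, and the second Sc5d probe set differed by -0.06. Dhcr7 was lower, at -0.26 (SE 0.08, adjusted p = 0.0472), a call kept in 4 of 14 alternatives. The calls of Hmgcs1, Sqle and Mvd were each kept in 8 of 15, and that of Sc5d in 9 of 15. Mvk, Pmvk, Fdft1, Lss, Nsdhl, Ebp and Hsd17b7 differed by -0.50 to 0.05 and did not pass.

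**Figure D4:**
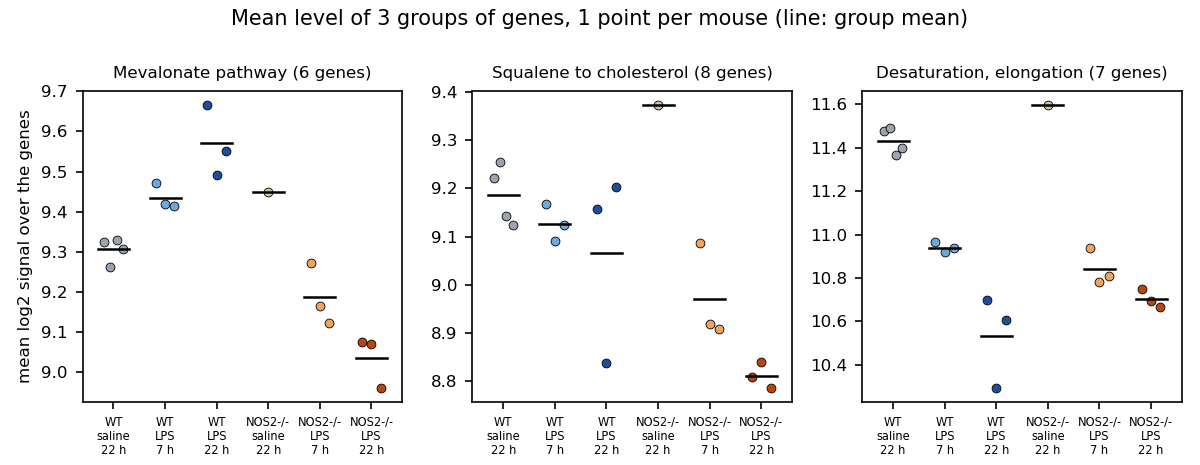
Mean log2 signal (vertical axis) over the 6 mevalonate enzymes, the 8 enzymes from squalene to cholesterol and the 7 desaturases and elongases, with 1 point per mouse in the 6 groups (horizontal axis) and a line at each group mean. The mevalonate means of the NOS2-/- LPS 22 h mice (8.96 to 9.08) lie below all other mice. Those of the wild-type LPS 22 h mice (9.49 to 9.67) lie above the saline mice, where Pmvk alone was called higher.

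As the plot of group means shows, the mevalonate enzymes averaged 9.26 to 9.33 in wild-type saline lungs and 9.49 to 9.67 in wild-type lungs at 22 h of LPS, where Pmvk alone was called higher. Its group mean went from 8.70 to 10.58. The group means of Hmgcs1, Idi1 and Fdps were lower than in saline lungs and those of Mvd and Mvk higher. Without wild-type replicate 2, the directions of Idi1 (0.04) and Mvk (-0.21) turned. Hmgcs1 then differed from saline by -0.03, Fdps by -0.20 and Mvd by 0.09. So the higher average is not a rise of the whole route. The 6 mevalonate enzymes averaged 8.96 to 9.08 in NOS2-/- lungs at 22 h and 9.12 to 9.27 at 7 h. The 8 enzymes from squalene to cholesterol averaged 9.12 to 9.25 in saline, 8.84 to 9.20 in wild-type LPS 22 h and 8.79 to 8.84 in NOS2-/- LPS 22 h lungs, the wild-type replicate 2 being the lowest of its group.

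Insig2, which keeps the SREBPs in the endoplasmic reticulum when sterol is plentiful, had the largest fall of the 32 genes in this comparison. It read 9.94, 9.40 and 9.94 in wild-type and 8.90, 9.10 and 8.86 in NOS2-/- lungs at 22 h, and 9.48 in the NOS2-/- saline mouse against 9.83, 9.88, 9.65 and 9.58 in wild-type saline mice. The NOS2-/- LPS values were lower than all of these. The difference at 22 h was -0.80 (SE 0.13, adjusted p = 0.000874), and a second probe set, at -1.10, was called lower too. The other regulators did not pass: Scap read 10.07, 10.03 and 10.02 in NOS2-/- lungs (-0.22, SE 0.09, adjusted p = 0.117), Srebf1 10.00, 9.94 and 9.98 (-0.07, interval -0.24 to 0.10) and Srebf2 10.24, 10.35 and 10.34 (0.05, interval -0.13 to 0.22).

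On the fatty acid side Scd2 read 10.97, 10.94 and 10.81 in NOS2-/- lungs at 22 h, all above the highest wild-type value of 10.19 and below the saline lungs. It was higher by 0.86 (SE 0.12, adjusted p = 0.000281), with both other probe sets called higher. Fasn read 11.05, 11.01 and 10.97, above all wild-type LPS 22 h lungs, a difference of 0.47 (SE 0.12, adjusted p = 0.0154) that was 0.28 (adjusted p = 0.00916) without replicate 2. Elovl6 read 9.52, 9.19 and 9.13 and was higher by 0.61 (SE 0.19, adjusted p = 0.0368), but by 0.37 (adjusted p = 0.0738) without replicate 2. Elovl1, at 11.12, 11.11 and 11.11, was lower, at -0.65 (SE 0.13, adjusted p = 0.00383).

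The remaining genes with per-mouse values did not pass at 22 h. Fads1 read 9.76, 9.68 and 9.76 (-0.04, interval -0.25 to 0.17), Elovl5 11.87, 11.85 and 11.86 (0.13, interval -0.19 to 0.45) and Acss2 8.39, 8.17 and 8.31 (-0.05, interval -0.31 to 0.20). Gpam read 10.04, 9.94 and 10.12 (-0.36, SE 0.14, adjusted p = 0.113) and Stard4 9.20, 9.30 and 9.22 (-0.19, SE 0.21, adjusted p = 0.585). Pmvk read 10.39, 10.22 and 9.62 (-0.50, SE 0.24, adjusted p = 0.184) and Nsdhl 9.47, 9.55 and 9.48 (-0.16, SE 0.07, adjusted p = 0.16). Without wild-type replicate 2, Gpam, Stard4, Pmvk and Nsdhl were called lower, as given above. That replicate was the lowest wild-type lung for Fads1 (9.51) and Elovl5 (11.20). All NOS2-/- values of these genes lay below those of the other wild-type lungs. Alveolar type 2 markers averaged 12.37 to 12.43 in the NOS2-/- lungs, against 12.26 to 12.52 in the wild-type lungs at that time, with 3 of the 9 higher and 2 lower. The low end of that wild-type range was replicate 2, and every NOS2-/- lung lay below the other wild-type lungs. Monocyte and macrophage markers were lower in the NOS2-/- lungs, at 10.90 to 10.97 against 11.11 to 11.50 (4 of 7 lower, none higher), as were 5 alveolar macrophage markers, at 10.17 to 10.24 against 10.35 to 10.51 (2 lower, none higher). Neutrophil markers averaged 12.12 to 12.16 against 11.74 to 11.98 (2 of 8 higher, 1 lower) and 5 club and ciliated cell markers 12.85 to 12.89 against 12.49 to 12.63 (3 higher, none lower). The 7 adipose markers averaged 8.53 to 8.83 against 8.12 to 8.32, with Adipoq higher by 2.45. Slc2a4 was also higher without overlap, at 8.78, 8.77 and 8.88 against 8.71, 8.67 and 8.63, whereas Cidec, Retn, Lep, Fabp4 and Ucp1 overlapped between the genotypes. The part of these marker shifts in the differences of the lipid genes between the genotypes was not tested.

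At 7 h of LPS none of the 32 genes passed limma's test between the genotypes, with 1.52% of all genes lower and 0.67% higher at the same adjusted threshold. An unadjusted limma p under 0.05 was reached by 6 of the 32. Those shares do not apply to this looser threshold, and its share of all genes is not set beside it. The largest differences were those of Hmgcs1 (-0.56, SE 0.18, adjusted p = 0.1), Idi1 (-0.52, SE 0.13, adjusted p = 0.054) and Sc5d (-0.52, SE 0.15, adjusted p = 0.0813). The NOS2-/- lungs at 7 h read 10.58, 10.15 and 10.16 for Hmgcs1, 9.38, 8.83 and 9.09 for Idi1, 9.88, 9.39 and 9.56 for Fdps and 9.44, 9.41 and 9.20 for Insig2, of which Hmgcs1, Idi1 and Insig2 lay below all wild-type lungs at 7 h. This result depended on 1 array of another group: without wild-type LPS 22 h replicate 2, which enters through the shared spread only, 8 genes were lower (Hmgcs1, Fdps, Idi1, Insig2, Elovl5, Sc5d, Ebp and Gpam) and Acaca was higher, beside 1729 lower and 1826 higher of all 12393 genes.

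Values of the other genes were as follows in the NOS2-/- lungs at 7 h. Scd2 read 11.08, 10.82 and 11.02, Fads1 9.76, 9.69 and 9.86, Fasn 11.37, 11.22 and 11.31 and Elovl6 9.85, 9.61 and 9.71. Elovl1 read 11.61, 11.07 and 11.38, Elovl5 11.69, 11.72 and 11.59, Acss2 8.38, 8.74 and 8.47 and Gpam 10.59, 10.21 and 10.26. Stard4 read 9.50, 9.14 and 9.29, Pmvk 8.89, 9.62 and 8.88, Nsdhl 9.69, 9.79 and 9.91 and Sc5d 8.86, 8.46 and 8.26. None of these differed from the wild-type 7 h group at an adjusted p under 0.05. For the regulators the values were 10.19, 10.17 and 10.04 for Srebf1, 10.42, 10.48 and 10.64 for Srebf2 and 10.25, 9.99 and 9.93 for Scap.

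Between 7 and 22 h in NOS2-/- lungs, Idi1 (-0.63, SE 0.13, adjusted p = 0.00851), Fdps (-0.48, SE 0.10, adjusted p = 0.0108) and Nsdhl (-0.30, SE 0.07, adjusted p = 0.0201) fell and Pmvk rose (0.95, SE 0.24, adjusted p = 0.024), with 3.87% of all genes lower and 4.55% higher. The Pmvk values at 7 and 22 h overlapped, and its call was kept in 10 of 16 alternatives. Scd2, which fell between these times in wild-type lungs, differed by -0.07 (interval -0.33 to 0.20) in NOS2-/- lungs. Without wild-type LPS 22 h replicate 2, 10 genes fell and 2 rose, beside 1183 and 1451 of all genes.

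The difference between the genotypes in the change from 7 to 22 h was tested directly, and 1 of the 32 genes passed, higher in NOS2-/- lungs, with 2.71% of all genes higher and 0.702% lower. This was Scd2, at 1.06 (SE 0.17, adjusted p = 0.00471), and both of its other probe sets were called the same way. Elovl6 (0.75, SE 0.27, adjusted p = 0.146) and Fasn (0.33, SE 0.17, adjusted p = 0.302) did not pass. Without wild-type replicate 2, Insig2 was called as well, lower, at -0.55 (adjusted p = 0.0189).

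Against the 1 NOS2-/- saline mouse, 14 of the 32 genes were lower and 1 higher in NOS2-/- lungs at 7 h of LPS, with 15.6% of all genes lower and 9.39% higher. At 22 h the counts were 20 lower and 1 higher, with 18.3% and 11.7% of all genes. The median difference over the 32 genes was -0.44 at 7 h and -0.66 at 22 h, against 0.04 and 0.02 over all genes. These comparisons rest on 1 control mouse, whose spread is assumed to be that of the other groups. That mouse carried the muscle, squamous and adipose signal given above and was the highest of all 17 mice for 8 of the 32 genes, among them Fdps (10.59), Scd1 (13.82) and Fads1 (11.15); how far those tissues raised the values was not tested. It read 11.00 for Hmgcs1, 9.55 for Idi1, 12.55 for Scd2, 11.82 for Fasn and 8.91 for Elovl6. With the 4 wild-type saline mice as the control in its place, 19 were lower and 1 higher at 7 h, and 22 lower and 2 higher at 22 h. Without wild-type LPS 22 h replicate 2 and with the NOS2-/- saline mouse as control, the counts were 19 lower and 1 higher at 7 h and 24 lower and 1 higher at 22 h. The shares of all genes in these settings are not set beside the counts, so the counts do not compare the 32 genes with the rest.

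At 22 h the falls from the NOS2-/- saline mouse included Fads1 (-1.42, SE 0.14, adjusted p = 2.2e-06), Scd2 (-1.65, SE 0.17, adjusted p = 4.15e-06), Elovl1 (-1.53, SE 0.19, adjusted p = 2.06e-05), Gpam (-1.27, SE 0.20, adjusted p = 0.000219), Acss2 (-1.05, SE 0.17, adjusted p = 0.000224) and Acly (-0.99, SE 0.15, adjusted p = 0.000122), and Pmvk rose (1.53, SE 0.34, adjusted p = 0.00284). Mevalonate and sterol genes that did not pass in wild-type lungs were lower here, among them Hmgcs1 (-1.16, SE 0.26, adjusted p = 0.00309), Idi1 (-1.08, SE 0.19, adjusted p = 0.000408), Fdps (-1.46, SE 0.15, adjusted p = 2.76e-06), Sqle (-0.83, SE 0.21, adjusted p = 0.00696) and Sc5d (-1.07, SE 0.22, adjusted p = 0.00165). No other probe set of Fdps, Idi1, Sc5d or Gpam passed here, and with the mean of its probe sets Fdps differed by -0.68 and lost its call (adjusted p = 0.16).

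Tested as the difference of the LPS response at 22 h between the genotypes, 2 of these passed and were lower, with 2.68% of all genes lower: Fdps at -1.21 (SE 0.18, adjusted p = 0.00103) and Idi1 at -1.02 (SE 0.22, adjusted p = 0.0151). Scd2 was the 1 that was higher, at 0.77 (SE 0.21, adjusted p = 0.0479), with 2.76% of all genes higher, and its call was lost in 10 of 20 alternatives. No other probe set of these 3 genes passed, and all 3 values rest on 1 NOS2-/- saline mouse. Hmgcs1 (-0.86, SE 0.31, adjusted p = 0.151), Sqle (-0.85, SE 0.25, adjusted p = 0.0686) and Sc5d (-0.85, SE 0.26, adjusted p = 0.0828) did not pass. Without wild-type replicate 2, 11 genes were lower and 1 higher, Hmgcs1, Sqle and Sc5d among the lower ones, beside 1236 and 777 of all genes.

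Genes next to these pathways were read from lists of named genes. Of 7 measured further sterol synthesis genes, 2 were higher (Nus1 and Cyp51) and 1 lower (Cyb5r3) at 7 h in wild-type lungs, and 1 was higher and 1 lower at 22 h, beside 14.6% of all genes higher and 20.6% lower at 7 h, and 13.1% and 22.6% at 22 h. Msmo1, a methylsterol oxidase of the cholesterol route, read 10.15, 9.88 and 10.17 in wild-type and 8.91, 8.90 and 9.03 in NOS2-/- lungs at 22 h of LPS, and at 7 h 10.26, 9.85 and 10.09 in wild-type and 9.66, 9.24 and 9.26 in NOS2-/- lungs. The genotypes did not overlap at either time. It was lower in NOS2-/- lungs, at -1.12 (SE 0.14, adjusted p = 6.98e-05) at 22 h and -0.68 (SE 0.14, adjusted p = 0.0269) at 7 h. Between the genotypes, 7.84% of all genes were lower and 10.2% higher at 22 h, and 1.52% and 0.67% at 7 h. Msmo1 was the only gene of the 7 called in either comparison. Its response at 22 h differed between the genotypes by -1.34 (SE 0.23, adjusted p = 0.00337), a value that rests on 1 NOS2-/- saline mouse.

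Of the oxysterol enzymes, Ch25h and Cyp7b1 rose. Ch25h, cholesterol hydroxylase, read 8.20, 8.28, 7.85 and 7.83 in wild-type saline lungs, 11.43, 11.50 and 11.47 at 7 h and 10.63, 10.28 and 10.38 at 22 h. It was 10.8-fold higher at 7 h (3.43, SE 0.15, adjusted p = 1.24e-10) and 5.24-fold higher at 22 h (2.39, SE 0.15, adjusted p = 8.71e-09). Cyp7b1, which further hydroxylates oxysterols, was higher by 1.62 (SE 0.08, adjusted p = 2.47e-10) and 1.17 (SE 0.08, adjusted p = 1.09e-08), and Cyp27a1, another sterol hydroxylase, was lower, at -1.15 (SE 0.11, adjusted p = 4.61e-07) and -1.28 (SE 0.11, adjusted p = 1.52e-07). Of the 13 measured genes of sterol uptake, efflux, storage and oxysterols, 2 were higher and 6 lower at 7 h, and 2 higher and 7 lower at 22 h, beside the same shares of all genes.

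**Figure D5:**
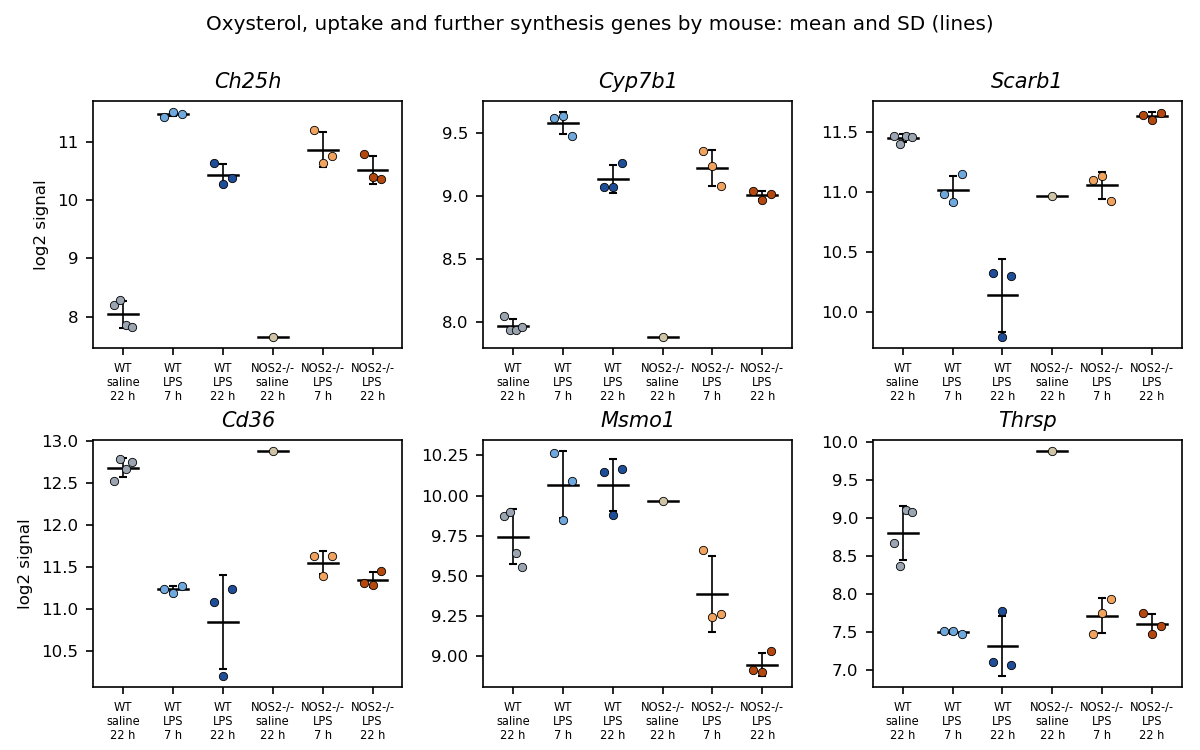
Log2 signal (vertical axis) of 6 genes next to the synthesis pathways in the 6 groups (horizontal axis), with 1 point per mouse and lines for the group mean and SD; each panel has its own scale. Ch25h and Cyp7b1 are higher and Cd36 and Thrsp lower in all LPS groups, Scarb1 is lowest in wild-type LPS 22 h and highest in NOS2-/- LPS 22 h lungs, and Msmo1 is lowest in NOS2-/- LPS 22 h lungs.

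Scarb1, the receptor that takes up cholesterol from high-density lipoprotein, fell in wild-type lungs (-0.43 at 7 h and -1.31 at 22 h). In NOS2-/- lungs at 22 h it was 0.67 above the 1 NOS2-/- saline mouse. It read 10.32, 9.79 and 10.30 in wild-type and 11.64, 11.60 and 11.66 in NOS2-/- lungs at 22 h, with wild-type saline lungs at 11.46, 11.40, 11.47 and 11.45 and the NOS2-/- saline mouse at 10.96. The NOS2-/- lungs were higher by 1.50 (SE 0.12, adjusted p = 2.1e-06), or 2.82-fold, and the response to LPS differed by 1.98 (SE 0.20, adjusted p = 3.03e-05). The 0.67 and the 1.98 rest on that 1 saline mouse, which read below every wild-type saline mouse. Cd36, the fatty acid transporter, was lower in wild-type lungs, at -1.45 (SE 0.18, adjusted p = 9.19e-06) at 7 h and -1.85 (SE 0.18, adjusted p = 7.19e-07) at 22 h.

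Of 8 measured genes of SREBP processing and lipid gene control, 4 were lower and 1 higher at 7 h and 5 were lower at 22 h; these counts and those of the next lists stand beside the same shares of all genes, 20.6% and 22.6% lower and 14.6% and 13.1% higher. Mbtps1, the protease that makes the first of the cuts in SREBP activation, was lower, at -0.61 (SE 0.17, adjusted p = 0.0122) and -1.08 (SE 0.17, adjusted p = 0.000134), and Thrsp, a lipogenic protein induced by thyroid hormone, at -1.31 (SE 0.19, adjusted p = 5.25e-05) and -1.49 (SE 0.19, adjusted p = 1.41e-05). Nr1h3, the oxysterol receptor LXR alpha, was higher at 7 h (0.34, SE 0.11, adjusted p = 0.0312) and lower at 22 h (-0.55, SE 0.11, adjusted p = 0.00134). Among 24 genes of fatty acid activation and glycerolipid assembly, 7 were lower and 3 higher at 7 h, and 8 lower and 3 higher at 22 h; Lpcat1, an acyltransferase of surfactant phosphatidylcholine, changed by -1.07 (SE 0.10, adjusted p = 3.56e-07) at 22 h. Fatty acid oxidation genes, 17 in all, gave 8 lower and 2 higher at both times, with Hadh lower, at -1.47 (SE 0.13, adjusted p = 4.13e-07) and Pdk4, the kinase that spares glucose, higher by 1.86 (SE 0.33, adjusted p = 0.000399) at 22 h. Between the genotypes at 22 h of LPS, 2 of the 8 control genes were higher and 2 lower in NOS2-/- lungs, as were 1 and 2 of the 13 uptake, efflux, storage and oxysterol genes, 1 and 2 of the 24 glycerolipid genes, and 0 and 2 of the 17 oxidation genes, beside 10.2% of all genes higher and 7.84% lower.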

How the data were processed

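Whole-lung RNA of 17 male mice was hybridised to Affymetrix MOE430A arrays, with 1 array per mouse. The authors deposited log2 signals per probe set, made with the affy package; no source used here names its version or the summary method. The 64 control probe sets were left out of 22690. Groups were taken from the labels. limma 3.58.1 in R 4.3.3 was fitted to all 17 arrays with 1 mean per group and empirical Bayes (prior df 3.75), adjusted by Benjamini-Hochberg over 22626 probe sets, and a call was an adjusted p under 0.05. The number of arrays limits the precision.

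A gene was represented by its brightest probe set among the 20380 naming 1 gene (691 named several and 1555 none), which gave 12393 genes. Names came from the platform annotation. Values of every mouse were given for genes among the 8 with the largest differences called in any of the first 6 comparisons, and for the regulators; up to 4 genes per neighbouring list and comparison could be named. The genes, lists of neighbouring pathways and cell markers, and tests were chosen with earlier results of these data known. The fit was tested on simulated data. Alternatives were other normalizations, array weights, a replicate block, a signal filter, moderated variances with a trend, the mean of probe sets, fewer arrays, another saline control and an adjusted p under 0.01.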

Additional observations from a re-analysis of the deposited data

Results flagged for a closer look

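In the wild-type saline group, the Fasn signal of replicate 2 was the highest at 11.83, with the nearest mouse at 11.68, and the Scd2 signal of replicate 4 was the lowest at 12.25, with the nearest at 12.52. Each gap filled most of the group's range (0.945 and 0.888 of it). Of 32 genes checked in this group 2 stood out in this way, where chance gives about 1 in 20.

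The effect of LPS differed between the genotypes by an interaction term in limma for 3 genes. For the change from 7 to 22 h, Scd2 differed by 1.06 (NOS2-/- minus wild-type), beside 2.71% of all genes higher and 0.702% lower. For the response at 22 h, Fdps differed by -1.21, Idi1 by -1.02 and Scd2 by 0.77, all against the 1 NOS2-/- saline mouse. Of all genes, 2.68% were lower and 2.76% higher in that response. No other probe set of these genes passed for it, and the Scd2 call was lost in 10 of 20 alternatives.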

How the results depend on the processing

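Counts are of the 32 genes called, without the share of all genes in each run, so they do not compare the 32 genes with the rest. No call changed direction under any alternative run, and of 1395 alternatives for 91 single calls 1254 kept the call and 141 lost it. Leaving out 1 mouse at a time gave 13 to 17 for wild-type LPS 7 h against saline (15 with all arrays), 15 to 18 at 22 h (16), 4 to 7 for wild-type 22 h against 7 h (4), 2 to 12 for NOS2-/- 22 h against 7 h (4), 0 to 9 between genotypes at 7 h (0) and 6 to 18 at 22 h (12). It gave 11 to 20 and 18 to 25 against the NOS2-/- saline mouse at 7 h (15) and 22 h (21), 1 to 2 for the genotype difference in the 7 to 22 h change (1) and 2 to 12 for that in the 22 h response (3). Leaving out wild-type LPS 22 h replicate 2 where its group was not compared was chosen after seeing the data.

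The groups compared alone gave 2 for wild-type 22 h against 7 h, 11 for NOS2-/- 22 h against 7 h, and 6 and 4 between genotypes at 7 and 22 h. Quantile normalization gave 10 for NOS2-/- 22 h against 7 h and 2 and 8 for the genotype differences in the 7 to 22 h change and the 22 h response. Array weights gave 14 for NOS2-/- 22 h against 7 h, 16 between genotypes at 7 h, 24 for NOS2-/- 7 h against its saline mouse, and 2 and 14 for those genotype differences. At an adjusted p under 0.01 there were 1 for NOS2-/- 22 h against 7 h, 5 between genotypes at 22 h and 1 for the 22 h response. The signal filter gave 1 between genotypes at 7 h and 5 for the 22 h response, median subtraction gave 1 between genotypes at 7 h, the mean of probe sets gave 2 for the 7 to 22 h change, and the wild-type saline control gave 12 for the 22 h response. The cause was not tested. The replicate block gave 1 between genotypes at 7 h and moved no other count by over 1.5 times. Same-numbered mice did not deviate together (4 of 30 pairs correlated over 0.1, from -0.385 to 0.362), so the numbers do not pair the mice.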
